A study of Homo sapiens with 6 samples.

Results

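The 10 genes described here encode carriers, and 1 carrier subunit, that move amino acids across the plasma membrane: SLC3A2, SLC7A5, SLC7A11, SLC7A1, SLC7A3, SLC1A4, SLC1A5, SLC38A1, SLC38A2 and SLC6A9. They were listed by gene name, by a rule that reads no measured value but was set with earlier results of these data known, and all 10 were found among the 55401 gene names of the files. RNA sequencing had measured them in RMS13, an established human cell line of alveolar rhabdomyosarcoma, and in RMS13-R, its isogenic derivative with acquired resistance to MAL3-101, which is a small-molecule inhibitor of HSP70 chaperones. The 3 groups held 2 libraries each, called A and B: parental RMS13 with DMSO, the vehicle, parental RMS13 with 10 µM MAL3-101, and resistant RMS13-R with 10 µM MAL3-101, each for 9 h in medium with serum. Untreated or DMSO-treated RMS13-R cells were not analysed here, so what belongs to the resistant line and what to its response to MAL3-101 cannot be told apart. Whether RMS13-R is 1 clone, and whether A and B were separate cultures, is not given in the sources used here, so the p-values reflect library-to-library spread, which may be technical.

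Some amino acid carriers are exchangers, some couple uptake to sodium, and the cationic carriers SLC7A1 and SLC7A3 work without sodium. SLC7A5 and SLC7A11 are light chains that reach the membrane bound to the heavy chain SLC3A2. The sodium-coupled SLC38 carriers load the cell with glutamine and small neutral amino acids, and exchangers can trade glutamine for leucine. When protein folding fails or amino acids run short, the integrated stress response raises translation of the transcription factor ATF4, and many carrier genes are known ATF4 targets through C/EBP-ATF response elements. NRF2, encoded by NFE2L2, is another known activator of SLC7A11.

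Promoter sequences are shown first, because all 10 genes were called higher in parental cells with MAL3-101 and several hold the letters of such an element. RefSeq promoters on GRCh38.p14, each 250 bases before to 50 bases after an annotated start, were matched by symbol for 8 of the 10 genes, with 14 starts in all; SLC7A11 and SLC7A3 were not in the table. The element was searched as TGATGNAAN on both strands. It occurred in 5 of the 14 promoters, against 3.61% of 35116 promoters in the table, and in 5 of the 8 genes, against 4.45% of 27305 genes. Within the bases upstream of the start alone, 1 of the 14 promoters held it, that of the most downstream SLC1A5 start, against 3.13% of all promoters. A match is a description of letters and not evidence of a bound site.

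The 30 bases around each of the 5 matches are given below 5′ to 3′ on the gene's strand, with the matched letters in capitals. They lie at chr2:64989381-64989410 (plus strand) for SLC1A4, at chr11:62881719-62881748 (plus) for SLC3A2, at chr13:29595662-29595691 (minus) for SLC7A1, at chr12:46266501-46266530 (minus) for SLC38A1 and at chr19:46784892-46784921 (minus) for SLC1A5. Counted from the start of the promoter that holds them as +1, the letters span -8 to +1 in SLC1A4 and +37 to +45 in SLC3A2. They span +8 to +16 in SLC7A1, -4 to +5 in SLC38A1 and -97 to -89 in SLC1A5. All of these genes but SLC7A1 also have other annotated starts, whose promoters held no match. In SLC1A5 the start with the match is the furthest downstream of those annotated. In SLC1A4 and SLC3A2 the match is on the opposite strand, so its reverse complement is what is read here.
SLC1A4: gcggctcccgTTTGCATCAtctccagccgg
SLC3A2: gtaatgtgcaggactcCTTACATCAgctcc
SLC7A1: ggcgcactgcTGATGAAACctggcgccgga
SLC38A1: cagacccgaaTGATGAAAAgggatcagcta
SLC1A5: aggaagtggcTGATGCAAGctgtccagggt

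The other motifs searched, also on both strands, were the antioxidant response element as TGACNNNGC, which NRF2 is known to bind, and the E-box CACGTG. The first occurred in 4 of the 14 promoters against 13.3% of all, and the second in 2 of 14 against 7.26%. Upstream of the SLC3A2 start whose promoter also holds the match above, at chr11:62881449-62881698 (plus strand, -250 to -1), the capitals mark an antioxidant element. SLC7A5 is also shown, as the 1 gene of the group called higher in resistant than in parental cells under the drug. It held no TGATGNAAN match in the bases searched. SLC6A9 and SLC38A2 held none there either, and were called lower in that comparison (log2 fold change -2.19 and -0.99). Sequence outside these promoter windows, such as introns, was not searched. Whether the letters relate to any of these differences was not tested. In the SLC7A5 stretch at chr16:87869488-87869757 (minus strand, -250 to +20) the capitals mark the E-box first and an antioxidant element at the start.
SLC3A2: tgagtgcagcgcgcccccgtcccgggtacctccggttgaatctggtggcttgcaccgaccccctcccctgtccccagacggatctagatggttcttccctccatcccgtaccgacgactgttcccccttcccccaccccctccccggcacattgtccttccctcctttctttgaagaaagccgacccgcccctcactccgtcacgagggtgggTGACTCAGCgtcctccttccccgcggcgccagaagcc
SLC7A5: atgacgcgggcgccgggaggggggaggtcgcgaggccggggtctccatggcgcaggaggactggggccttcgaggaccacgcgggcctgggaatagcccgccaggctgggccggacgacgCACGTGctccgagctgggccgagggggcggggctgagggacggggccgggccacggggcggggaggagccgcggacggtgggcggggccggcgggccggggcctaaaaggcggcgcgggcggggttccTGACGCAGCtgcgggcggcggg

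Letters of the C/EBP-ATF element were not limited to carriers. Among tested genes with a promoter in the table, 266 held them, and 36.8% of these were higher and 13.2% lower in parental cells with MAL3-101 than with DMSO. Of the 9378 without them, 24.8% were higher and 19.7% lower. Between resistant and parental cells under the drug 17.7% of genes with the letters were higher and 49.2% lower, beside 21.9% and 38.8% of those without. For resistant cells against DMSO the shares were 27.4% and 33.1% with the letters and 21.9% and 33.2% without, with medians of -0.05 and -0.07. For the other motifs the shares called higher in parental cells lay close together, at 26.1% of genes with the antioxidant letters and 24.9% without, and at 25.1% with the E-box and 25.2% without. Called lower there were 22.4% of genes with the E-box and 19.1% without. For resistant cells against DMSO 18.8% with the E-box and 22.6% without were higher, and 36.8% and 32.7% lower. With and without the antioxidant letters 22.6% and 22% were higher there, and 32.2% and 33.4% lower. No test was made of any of these shares. Values per gene cannot separate starts, so which of these promoters was in use was not measured.

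In the libraries as a whole, between 13918 and 14334 genes stood at 1 TPM (transcripts per 1000000) or more. Markers checked the labelled cell type: MYOD1 stood at 484 to 816 TPM and MYOG at 320 to 688, while MYF5 was at 0 and MYF6 and PAX7 at 0.09 or less. The 17 muscle markers, 14 of them tested, summed to 3573 to 3667 TPM with DMSO, 3190 to 3194 in parental libraries with the drug and 2719 to 2760 in resistant ones. Single markers differed in both directions. In resistant cells CHRNA1 averaged 51.0 TPM against 311 with DMSO, FGFR4 205 against 610, TNNT2 126 against 398 and MYL4 46.7 against 134. MYOG averaged 679 against 421, DES 475 against 369, PAX3 76.0 against 36.4 and FOXO1 48.1 against 25.5. Of 11 epithelial markers 3 were tested, with sums of 21.3 to 27.1, 42.3 to 43.6 and 19.5 to 21.0 TPM in the same order and KRT5 at 0. Of 8 endothelial markers 7 were found by name, all but PECAM1, and 2 were tested. The 7 summed to 4.51 to 4.93, 2.70 to 3.07 and 19.7 to 21.7, nearly all of the last from TEK. Fibroblast markers, 4 of 9 tested, summed to 31.6 to 41.4 TPM over all libraries, and blood markers, 1 of 9 tested, to 1.15 to 2.94, with HBB at 0. Mitochondrial ribosomal RNA took 0.533% and 0.565% of TPM with DMSO, 1.92% and 1.97% in drug-treated parental libraries, and 0.784% and 0.767% in resistant ones. Both the mitochondrial ribosomal RNA and the epithelial sum were highest in parental libraries with the drug, as were 9 of the 10 carriers. The part of the epithelial genes was not tested. With TPM rescaled without mitochondrially encoded genes none of the 10 carriers changed its call.

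MAL3-101 was accompanied by higher transcript levels of the whole carrier group in parental cells. All 10 genes were called higher and 0 lower than with DMSO, where 22.6% of all 15148 tested genes were called higher and 18.2% lower. Over all genes that balance depended on the scaling, with 3429 higher and 2752 lower as deposited and 2996 and 3413 with upper-quartile scaling, while the 10 carriers stayed called higher. Without parental MAL3-101 library A the calls were 1801 and 1368, without B 1936 and 1461, and 9 carriers were called higher in each case, all but SLC38A2. The changes ran from 0.40 for SLC1A5 to 3.38 for SLC6A9 on the log2(TPM + 1) scale, with a median of 1.06 against 0.02 over all tested genes. In a test against a fold of 1.5, 7 of the 10 were called higher, all but SLC7A3, SLC1A5 and SLC38A2. Of all 15148 tested genes 299 were called higher by that test. In 5 of the 10 the rise was 2-fold or more (SLC6A9, SLC7A11, SLC1A4, SLC3A2 and SLC7A1), where 2.81% of all genes rose that far. In resistant cells under the same dose the levels were mostly lower than in parental cells under the drug: 8 genes were called lower, SLC7A5 was called higher, and SLC7A3 did not pass. Over all genes, 34.8% were called lower and 21.3% higher in that comparison. A 2-fold or larger deficit was called for 4 of the 10 (SLC1A4, SLC6A9, SLC1A5 and SLC7A11) and for 7.57% of all genes. Relative to parental cells with DMSO, resistant cells with the drug had 7 of the 10 called higher, SLC1A5 and SLC38A2 called lower, and SLC1A4 not past the test, where 20.9% of all genes were higher and 29.7% lower. The excess was 2-fold or more for 3 of them (SLC7A11, SLC7A5 and SLC6A9), against 3.70% of all genes. The 3 comparisons share libraries in pairs, so their values are set side by side and not as separate evidence.

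Groups of libraries did not overlap for 10, 10 and 9 of the 10 genes in these comparisons, but with 2 libraries a group the same held for 69.8%, 83.4% and 75.8% of all tested genes. A gene was tested if its mean reached 1 TPM in at least 1 group, and a call is an adjusted p under 0.05 by limma with Benjamini-Hochberg adjustment. SLC6A9 passed that filter through its drug-treated groups, since its DMSO mean was 0.945 TPM. A fold change on the log2(TPM + 1) scale understates the change of such low genes.

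**Figure D1:**
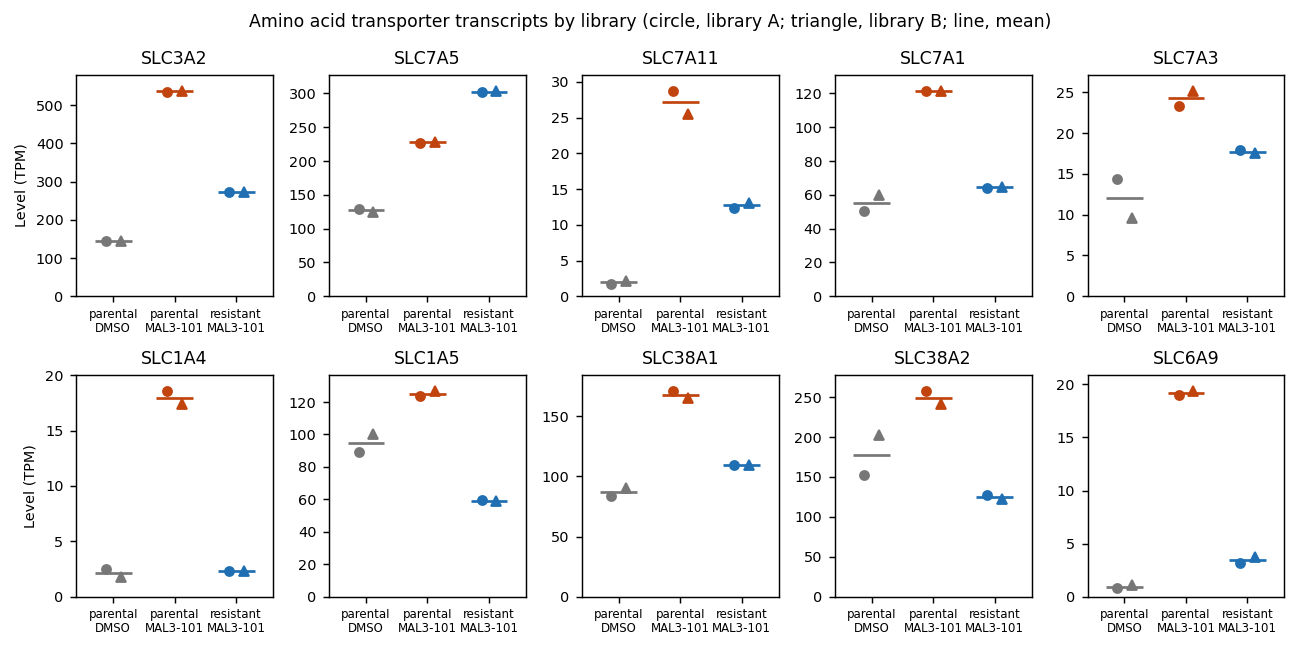
Transcript level in TPM of the 10 carrier genes (vertical axes, each from 0) in the 3 groups (horizontal axes); circles are library A, triangles library B and lines the group mean. In 9 of the 10 genes parental cells with MAL3-101 hold the highest level; the exception is SLC7A5, which is highest in resistant cells.

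SLC3A2 encodes the heavy chain of CD98, which carries light chains to the cell surface and has no transport path of its own. It stood at 145 and 145 TPM with DMSO, at 535 and 537 TPM in parental cells with MAL3-101, and at 273 and 272 TPM in resistant cells. The 3 groups were apart, with resistant cells between the parental groups. The log2 change was 1.88 (SE 0.04, adjusted p = 8.1e-07) in parental cells with the drug, and resistant cells lay below them (log2 fold change -0.97, SE 0.04, adjusted p = 4.9e-06) and 0.91 above DMSO (SE 0.04, adjusted p = 9.2e-06). In parental cells with MAL3-101 it was the most abundant transcript of the 10.

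SLC7A5, the LAT1 light chain that imports leucine and other large neutral amino acids, followed another order. Its levels were 129.5 and 125 TPM with DMSO, 226 and 229 TPM in parental cells with MAL3-101, and 302 and 304 TPM in resistant cells. Each step upward was free of overlap, and resistant cells were the highest. The log2 change in parental cells was 0.83 (SE 0.04, adjusted p = 3.1e-05), and resistant cells exceeded parental cells under the drug by a further 0.41 (SE 0.04, adjusted p = 2.2e-04). Against DMSO the resistant value was 1.24 higher (SE 0.04, adjusted p = 4.2e-06). SLC7A5P1, named as a pseudogene of SLC7A5, was listed at 2.98 and 2.47, 7.41 and 11.6, and 2.59 and 3.59 TPM in the same order, and reads of the 2 may have been divided between them.

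SLC7A11 is the xCT light chain, which brings in cystine, the source of cysteine for glutathione, in exchange for glutamate. With DMSO it was nearly absent, at 1.77 and 2.16 TPM. Parental cells with MAL3-101 held 28.7 and 25.6 TPM, and resistant cells 12.3 and 13.1 TPM. All groups were apart. The rise in parental cells was 3.25 on the log2 scale (SE 0.11, adjusted p = 5.5e-06), and the resistant value was below it (log2 fold change -1.04, SE 0.11, adjusted p = 2.8e-04) yet 2.21 above DMSO (SE 0.11, adjusted p = 1.6e-05). The antisense gene SLC7A11-AS1, which overlaps it, was listed at 0 in both DMSO libraries, at 0.80 and 0.83 TPM in parental cells with the drug and at 0.22 and 0.27 TPM in resistant cells. Whether counting used strand is not given in the sources used here, so reads of the 2 genes cannot be told apart.

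The balance of light chains to heavy chain differed between groups. Summing the TPM of the known SLC3A2 partners (SLC7A5, SLC7A6, SLC7A7, SLC7A8, SLC7A10 and SLC7A11) and dividing by that of SLC3A2 gave 1.34 and 1.24 with DMSO, 0.589 and 0.595 in parental cells under the drug, and 1.40 and 1.40 in resistant cells. By this sum, heavy chain transcripts outnumbered those of the partners in parental cells under the drug and not in the other groups. An exact permutation test of 2 libraries against 2 cannot go below p = 0.333, so these ratios are a description. With SLC7A5 and SLC7A11 alone as light chains the mean ratios were 0.892, 0.475 and 1.16, so that with DMSO their sum lay below the heavy chain.

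The share of each light chain also differed between groups, given here without a test. Of their sum, SLC7A11 made up 1.06% ± 0.20 with DMSO, 8.56% ± 0.79 in parental cells under the drug and 3.33% ± 0.14 in resistant cells (SD, n = 2 each). SLC7A5 transcripts outnumbered those of SLC7A11 65.5-fold, 8.41-fold and 23.8-fold in the same groups. Of the remaining light chains, SLC7A6 and SLC7A7 gave no called change in the main fit. SLC7A7, which exports cationic amino acids in exchange for neutral ones, had means of 40.5, 46.5 and 53.5 TPM, and SLC7A6, a carrier of the same kind, 17.4, 15.8 and 13.2 TPM. With the replicate block SLC7A7 passed between resistant cells and DMSO (0.42, adjusted p = 0.048), and without DMSO library A it passed in all 3 comparisons (0.48, 0.20 and 0.68) and SLC7A6 likewise (-0.33, -0.25 and -0.57). Between resistant and parental cells under the drug, both also passed when DMSO library B was left out. SLC7A7 was also called higher in resistant cells than with DMSO under median-ratio scaling (0.49, adjusted p = 0.024) and upper-quartile scaling (0.48, adjusted p = 0.028). The same held without mitochondrially encoded genes (0.43, adjusted p = 0.048). In the 4 libraries compared alone, both genes passed between resistant and parental cells under the drug (adjusted p = 0.009 for SLC7A7 and 0.039 for SLC7A6). SLC7A8 was at 0.27 TPM or less in every library.

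**Figure D2:**
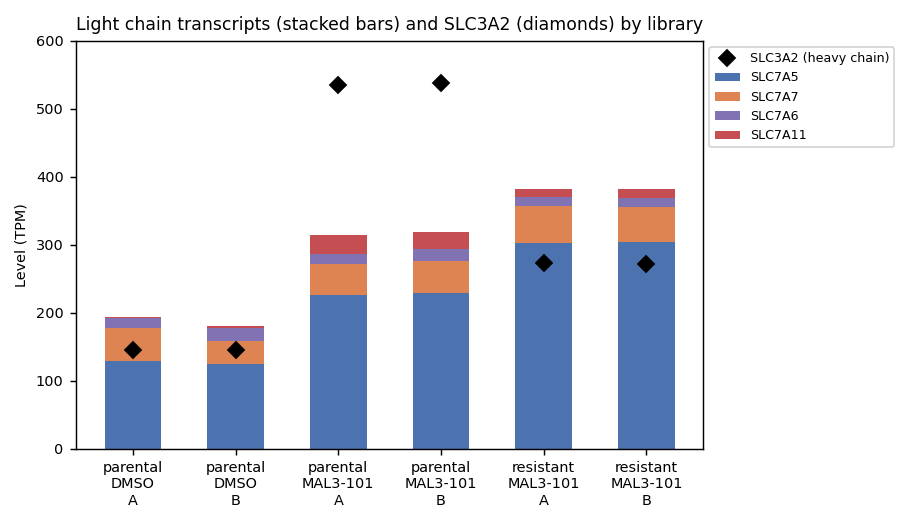
Stacked bars give the TPM of light chain transcripts in each of the 6 libraries and diamonds the TPM of the heavy chain SLC3A2. The diamonds lie far above the bars only in the parental MAL3-101 libraries (535 and 537 TPM against summed light chains of 315 and 319.5 TPM) and below the bar tops in the other 4.

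The cationic carriers SLC7A1 and SLC7A3 import arginine, lysine and ornithine without a heavy chain. SLC7A1 stood at 50.6 and 59.8 TPM with DMSO, 121 and 121 TPM in parental cells with MAL3-101, and 64.2 and 64.9 TPM in resistant cells. The parental drug-treated pair was clear of the others, and resistant cells lay just above DMSO. The change was 1.13 (SE 0.08, adjusted p = 1.1e-04) in parental cells, and resistant cells were lower than these (log2 fold change -0.90, SE 0.08, adjusted p = 9.3e-05). The small excess of resistant cells over DMSO, 0.23 (SE 0.08, adjusted p = 0.045), lost its call when any 1 of 5 libraries was left out: DMSO A (adjusted p = 0.052), parental MAL3-101 A (0.085) or B (0.084), or resistant A (0.150) or B (0.172).

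SLC7A3, a relative with a narrower tissue range, was at 14.4 and 9.59 TPM with DMSO, 23.4 and 25.2 TPM in parental cells with MAL3-101, and 17.9 and 17.5 TPM in resistant cells. Its DMSO libraries were the most unlike each other of the 10 genes for their level. The rise in parental cells was 0.98 (SE 0.16, adjusted p = 0.003). Resistant cells differed from these by -0.43 (95% confidence interval -0.82 to -0.05, adjusted p = 0.055), which did not pass, although the groups did not overlap; without DMSO library A or B the adjusted p was 0.001 in each case. Against DMSO the resistant value was 0.55 higher (SE 0.16, adjusted p = 0.025), a call lost without resistant library A (adjusted p = 0.113) or B (0.10).

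SLC1A4 and SLC1A5 are sodium-dependent exchangers of small neutral amino acids, the first known for serine and alanine and the second for glutamine. SLC1A4 stood at 2.47 and 1.76 TPM with DMSO, 18.6 and 17.4 TPM in parental cells with MAL3-101, and 2.34 and 2.33 TPM in resistant cells. The resistant values fell inside the DMSO range. The parental change was 2.62 (SE 0.14, adjusted p = 4.0e-05), and resistant cells were lower than parental cells under the drug (log2 fold change -2.51, SE 0.14, adjusted p = 1.8e-05), the largest such difference among the 10. Against DMSO the resistant difference was 0.11 (95% confidence interval -0.23 to 0.44, adjusted p = 0.557), and without DMSO library B it was -0.06 (adjusted p = 0.699).

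SLC1A5 was at 89.4 and 100.1 TPM with DMSO, 124 and 127 TPM in parental cells with MAL3-101, and 59.4 and 59.0 TPM in resistant cells. Here resistant cells were the lowest of the 3 groups, with no overlap. The parental change was the smallest of the group, 0.40 (SE 0.06, adjusted p = 0.003). Resistant cells lay below parental cells under the drug (log2 fold change -1.07, SE 0.06, adjusted p = 2.0e-05) and below DMSO (log2 fold change -0.67, SE 0.06, adjusted p = 1.7e-04).

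SLC38A1 and SLC38A2 are neighbouring genes on chromosome 12 for sodium-coupled carriers that load glutamine and alanine into cells. SLC38A1 was measured at 83.5 and 90.0 TPM with DMSO, 171 and 165 TPM in parental cells with MAL3-101, and 110.0 and 109.6 TPM in resistant cells. Resistant cells were between the parental groups without overlap. The values were 0.95 (SE 0.05, adjusted p = 4.5e-05) for parental drug against DMSO, -0.61 (SE 0.05, adjusted p = 9.6e-05) for resistant against parental under the drug, and 0.34 (SE 0.05, adjusted p = 0.002) for resistant against DMSO.

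SLC38A2 was the most abundant of the 10 with DMSO, at 153 and 202 TPM. It reached 257 and 242 TPM in parental cells with MAL3-101 and stood at 128 and 122 TPM in resistant cells, the lowest group. The parental change of 0.50 (SE 0.12, adjusted p = 0.013) lost its call without parental MAL3-101 library A (adjusted p = 0.090) or B (0.054). Resistant cells were lower than parental cells under the drug (log2 fold change -0.99, SE 0.12, adjusted p = 3.8e-04). Their shortfall against DMSO (log2 fold change -0.49, SE 0.12, adjusted p = 0.011) lost its call without resistant library B (adjusted p = 0.070). SLC38A4, the next gene of the family along the chromosome, was called lower in parental cells with the drug (log2 fold change -0.40, adjusted p = 0.031), a call lost without any 1 of 5 libraries (DMSO B, or either of the parental MAL3-101 or resistant pair; adjusted p from 0.055 to 0.144). It was 0.85 higher (adjusted p = 8.2e-04) in resistant than in parental cells under the drug.

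SLC6A9, the GlyT1 glycine transporter, was the lowest of the 10 with DMSO, at 0.84 and 1.05 TPM. It stood at 19.0 and 19.4 TPM in parental cells with MAL3-101 and at 3.14 and 3.73 TPM in resistant cells. All 3 groups were apart. Its parental change, 3.38 (SE 0.13, adjusted p = 8.5e-06), was the largest of the group, and resistant cells were lower (log2 fold change -2.19, SE 0.13, adjusted p = 2.1e-05) but 1.19 above DMSO (SE 0.13, adjusted p = 3.3e-04). CCDC24, which overlaps it on the other strand, was at 1.29 to 2.53 TPM with no called change.

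**Figure D3:**
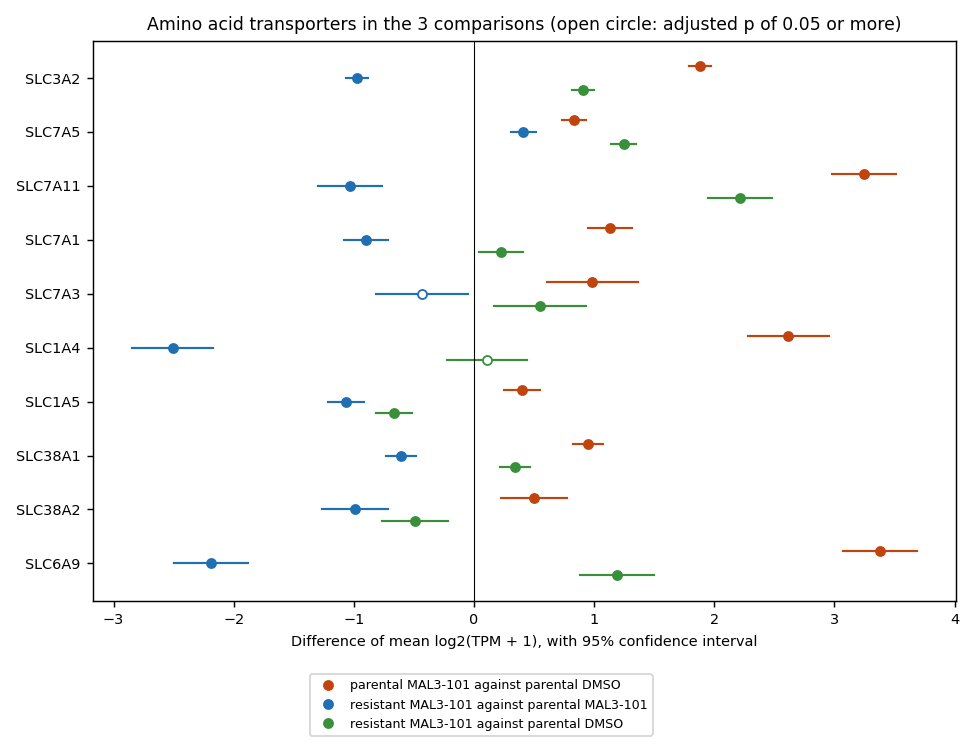
Difference of mean log2(TPM + 1) for each of the 10 genes (rows) in the 3 comparisons (colours), with 95% confidence intervals; open circles did not pass an adjusted p of 0.05. All 10 parental drug responses lie right of 0, 9 of the 10 resistant against parental differences lie left of it with SLC7A5 at 0.41, and the resistant against DMSO values straddle it from -0.67 to 2.21.

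Added together, the 10 transcripts came to 703 ± 46.9 TPM with DMSO, 1517 ± 11.5 TPM in parental cells with MAL3-101 and 969.9 ± 2.55 TPM in resistant cells (SD, n = 2 each). SLC38A2 was the largest part with DMSO, at 25.1% ± 3.28. SLC3A2 led in parental cells with the drug, at 35.4% ± 0.37, and SLC7A5 led in resistant cells, at 31.2% ± 0.21. SLC7A5 had held 18.1% ± 1.67 with DMSO and 15.0% ± 0.22 in parental cells under the drug. SLC1A5 held 13.5% ± 0.17, 8.26% ± 0.20 and 6.10% ± 0.02 in the same 3 groups. These shares are given without a test. In the order of levels within each group, neighbours overlapped only with DMSO, between SLC1A5 and SLC38A1 and between SLC1A4 and SLC7A11.

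By their course over the 6 libraries the genes differed from each other, and genes of 1 family did not always sit together. Distances are Euclidean, between log2(TPM + 1) profiles centred on their own means, so a smaller value is a closer likeness. The closest pair was SLC1A5 and SLC38A2 (0.26), the only carriers called lower in resistant cells than with DMSO, and the next was SLC7A1 and SLC38A1 (0.31). SLC38A1 and SLC38A2, which are neighbours, stood 0.86 apart, and SLC1A4 and SLC1A5 2.28 apart. SLC7A5 and SLC7A11, which share the heavy chain, stood 2.44 apart.

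Among 10905 other tested genes averaging at least 5 TPM, the 3 nearest to each carrier were taken. SLC7A11 lay nearest to CHAC1, which degrades glutathione (0.93), then to ASNS, asparagine synthetase (1.02), and CEBPB, a C/EBP transcription factor (1.03). SLC6A9 lay nearest to SESN2, a leucine sensor (0.30), then ARHGAP9 (0.43) and ATF3 (0.44), a stress-induced transcription factor. The list of SLC1A4 was RFPL4A (0.20), NR1D1 (0.32) and CTH (0.33), the enzyme that makes cysteine from cystathionine. For SLC3A2 it was SLC30A1, a zinc exporter (0.16), CARS, the cysteine tRNA synthetase (0.22), and EPB41L4A-AS1 (0.26).

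SLC7A1 lay nearest to EIF1 (0.14), RCAN1 (0.19) and C16orf72 (0.20). SLC7A3 lay nearest to POLD4 (0.14), SLC38A1 to SNHG11 (0.11), SLC38A2 to ABL2 (0.15) and SLC1A5 to NT5C3A (0.05). Nearness over 6 libraries in 3 groups is a description of level alone.

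Of 35 further carriers of the plasma membrane 14 were tested, and the other 21 never exceeded 1.05 TPM. The counts of this and the following lists stand beside shares over all tested genes. These were 22.6% higher and 18.2% lower in parental cells with the drug. They were 21.3% and 34.8% in resistant against parental cells under it, and 20.9% and 29.7% in resistant cells against DMSO. In parental cells with MAL3-101, 3 rose (SLC43A1 by 0.67, SLC36A4 by 0.53 and SLC38A5 by 0.43), SLC38A4 fell, and 10 did not pass, with a median of 0.11. Without DMSO library A 5 rose and 2 fell, without any 1 of the other libraries 0 fell, and without parental MAL3-101 library B 1 rose, with SLC36A4 (adjusted p = 0.083) and SLC38A5 (0.139) no longer called; SLC36A4 also lost its call without DMSO library B (0.064) or parental MAL3-101 library A (0.138). In resistant against parental cells under the drug, 4 were higher and 4 lower, and against DMSO 4 were higher and 3 lower. The 4 lower became 7 without either DMSO library, and the 4 higher against DMSO became 2 without either resistant library. The 3 lower became 2 without either parental MAL3-101 library or resistant B, and 1 without resistant A. SLC7A2, the cationic carrier related to SLC7A1 and SLC7A3, had means of 20.9, 21.3 and 49.0 TPM: it was not called in parental cells with the drug (0.03, 95% confidence interval -0.14 to 0.19, adjusted p = 0.774) and was 1.17 higher in resistant cells under the drug (SE 0.07, adjusted p = 2.3e-05). SLC16A10, a carrier of aromatic amino acids, was likewise 0.65 higher in resistant cells (SE 0.12, adjusted p = 0.003).

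Of 18 tested carriers of lysosomes and mitochondria 2 rose and 7 fell in parental cells with MAL3-101, with a median of -0.20. The rises were 5 without DMSO library A and 1 without either parental MAL3-101 library, and the falls were 3 or 4 without the latter and 10 without DMSO library B. SLC38A9, the lysosomal arginine sensor of mTORC1, rose by 0.73 (SE 0.09, adjusted p = 0.001) and SLC25A38, the mitochondrial glycine carrier, by 0.32 (SE 0.07, adjusted p = 0.009), the second call being lost without parental MAL3-101 library A (adjusted p = 0.068) or B (0.061). SFXN3 (log2 fold change -0.93, SE 0.12, adjusted p = 0.001) and SLC25A22, a mitochondrial glutamate carrier (log2 fold change -0.86, SE 0.12, adjusted p = 0.002), fell the furthest. SFXN3 was lower still in resistant cells (log2 fold change against DMSO -2.16, SE 0.12, adjusted p = 2.3e-05). In resistant against parental cells under the drug, 7 were higher and 7 lower (4 lower without resistant library B).

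Of 23 genes listed as regulators of carrier genes, 16 rose and 3 fell in parental cells with MAL3-101, with a median of 0.81. The list was not limited to transcription factors. It also held TRIB3, TXNIP, EIF2AK3, PPP1R15A and PPP1R15B, which rose, EIF2AK4, which fell, and EIF2AK1 and EIF2AK2, which did not pass. Of these the EIF2AK genes encode kinases and the PPP1R15 genes phosphatase subunits. The 3 falls were 2 without either resistant library and 1 without either parental MAL3-101 library. In resistant against parental cells under the drug 4 were higher and 17 lower, with a median of -0.77. ATF4 had means of 249, 655 and 503 TPM, a change of 1.39 in parental cells (SE 0.04, adjusted p = 2.8e-06) and of -0.38 between resistant and parental cells under the drug (SE 0.04, adjusted p = 3.1e-04). DDIT3, which encodes the stress factor CHOP, had means of 130, 2287 and 386 TPM, and its parental change was 4.12 (SE 0.05, adjusted p = 1.2e-07). NFE2L2 had means of 37.4, 110 and 57.6 TPM and rose by 1.53 (SE 0.06, adjusted p = 6.9e-06). Against DMSO the resistant values of ATF4, DDIT3 and NFE2L2 were still higher, by 1.01, 1.56 and 0.61 respectively. Levels of ATF4 protein, which is regulated in translation, and of NRF2 protein were not measured. NFE2L2 values are of transcript alone, and the activity of NRF2 was not tested.

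Of 19 tested genes that use cystine or make glutathione, 4 rose and 3 fell in parental cells with MAL3-101, with a median of 0.02. The 3 falls were 2 without parental MAL3-101 library A or either resistant library and 1 without parental MAL3-101 library B. CHAC1 rose by 4.02 (SE 0.16, adjusted p = 1.0e-05), CTH by 2.81 (SE 0.15, adjusted p = 4.0e-05) and CBS, which makes cystathionine, by 1.49 (SE 0.14, adjusted p = 4.0e-04). In resistant against parental cells under the drug 3 were higher and 9 lower, among them CTH (log2 fold change -2.40, SE 0.15, adjusted p = 2.8e-05). The 3 higher were 6 without either DMSO library, and the 9 lower were 6 without parental MAL3-101 library B or resistant library A. CBS had means of 53.9 TPM in parental and 63.2 TPM in resistant cells under the drug, a difference of 0.23 (95% confidence interval -0.11 to 0.56) that did not pass (adjusted p = 0.211); leaving out DMSO library A or B brought it past the threshold (0.005 each).

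Of 32 genes of amino acid sensing upstream of mTORC1, 6 rose and 4 fell in parental cells with the drug, with a median of -0.05. Without either parental MAL3-101 library 3 rose and 0 fell, without either resistant library 4 rose and 2 fell, and the falls were 11 without DMSO library B. SESN2 rose by 3.48 (SE 0.08, adjusted p = 8.1e-07) and DDIT4, an inhibitor of mTORC1 signalling, by 2.88 (SE 0.19, adjusted p = 1.0e-04). In resistant against parental cells under the drug 10 were higher and 12 lower, with SESN2 lower (log2 fold change -2.33, SE 0.08, adjusted p = 2.2e-06). RRAGD, a Rag GTPase, was 1.16 higher (SE 0.11, adjusted p = 1.2e-04). RRAGB, another Rag GTPase, was lower (log2 fold change -0.98, SE 0.20, adjusted p = 0.005).

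**Figure D4:**
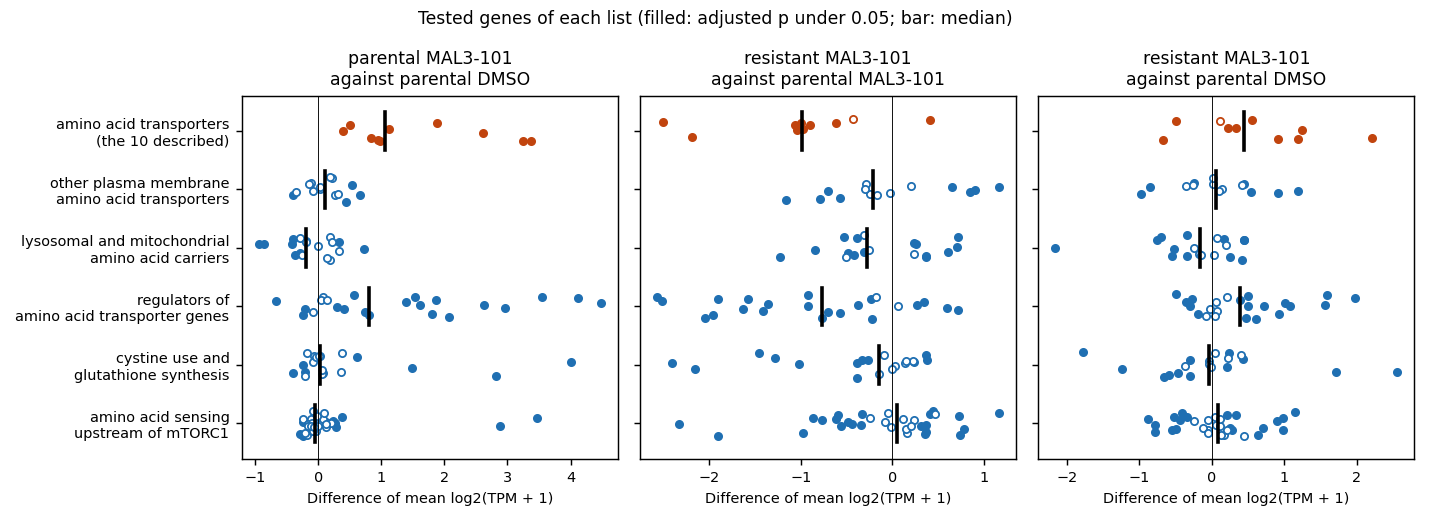
Difference of mean log2(TPM + 1) of each tested gene in the 10 carriers and 5 other gene lists (rows) for the 3 comparisons (panels); filled points passed an adjusted p of 0.05 and black bars are medians. The bar of the 10 carriers stands at 1.06, -0.98 and 0.44, that of the regulators at 0.81, -0.77 and 0.40, and the other bars lie between -0.28 and 0.11.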

How the data were processed

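The files hold TPM per gene name for 6 libraries, with 1 file each, as deposited by the authors. Per the labels' protocols, total RNA went into paired-end TruSeq libraries. The submitters' processing notes name RSEM, DESeq and hg19. Versions, the aligner and whether strand was used are not given in the sources. Each library sums to 1000000 TPM, so read depth is unknown and no counting interval is given. The DMSO titles also name the drug, and the descriptions were followed.

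A gene was tested where any group's mean reached 1 TPM (15148 genes), as log2(TPM + 1) with limma 3.58.1 in R 4.3.3, with group means over all 6 libraries and a mean-variance trend (3 residual and 4.17 prior degrees of freedom, median SE 0.105). P-values were adjusted by Benjamini-Hochberg over all tested genes of a comparison. Fitting code was tested on simulated data. All 3 comparisons used 2 libraries a group, and SDs have n = 2.

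The carriers, the 5 other lists, the markers and the motifs were chosen with earlier results of these data known. Genes named are the 10 carriers, up to 4 called genes of each other list per comparison with the largest change and no overlap (of which the text takes a part), SLC7A6, SLC7A7, SLC7A8, ATF4, DDIT3, NFE2L2 and CHAC1, and the 3 nearest profiles of each carrier (those of SLC7A5 are not reported here, and of some carriers 1 is named). SLC16A10 between resistant and parental cells under the drug, SLC25A38 in parental cells, and overlapping or pseudogene neighbours were named after their values were seen. So were TSC2 in resistant cells and the muscle markers compared between resistant cells and DMSO. TXNIP and the kinase and phosphatase subunit genes were named to describe the list of regulators. Alternatives were pseudocounts of 0.1 and 0.5, no filter, a filter of 5 TPM, a replicate block, a fit on the 4 libraries of a comparison, leaving out each library, median-ratio and upper-quartile scaling, TPM without mitochondrially encoded genes, and a test against a fold of 1.5. Promoters are RefSeq, GRCh38.p14, and overlaps come from GENCODE 29. Since the files rest on hg19, no other coordinates are given. Python 3.11.15, numpy 2.4.6 and matplotlib 3.10.9 were used.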

Additional observations from a re-analysis of the deposited data

How the results depend on the processing

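Of 480 values of the 10 carriers under 16 alternatives, 449 kept their direction and side of the threshold, 26 lost the call, 4 gained it and 1 turned sign: SLC1A4, resistant cells against DMSO, at -0.057 without DMSO library B and 0.27 without DMSO library A. None of the 10 carriers changed its call or direction with either other scaling, without mitochondrially encoded genes or with another pseudocount. In the test against a fold of 1.5, 7 carriers stayed called higher in parental cells with the drug. SLC7A3 (adjusted p = 0.443), SLC1A5 and SLC38A2 lost that call. Between resistant and parental cells under the drug 0 carriers were higher, and SLC38A1 was no longer called lower. Against DMSO, 4 were higher and 0 lower in resistant cells. With no filter 1 carrier was lower in resistant cells than with DMSO, and with a library left out 1 to 2, the 1 without resistant library B. With no filter SLC38A2 lost its calls against DMSO (adjusted p = 0.063 in parental and 0.053 in resistant cells), as did SLC7A1 (0.114) and SLC7A3 (0.090) in resistant cells. In the 4 libraries compared alone SLC7A1 (0.087) and SLC7A3 (0.051) lost that call, and SLC7A3 between resistant and parental cells passed there (0.001) and with a filter of 5 TPM (0.049). The cause of these changes was not tested. The light chain ratio with SLC7A5 and SLC7A11 alone was 0.892, 0.475 and 1.16.

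Libraries A and B are paired by a letter alone: deviations of same-lettered libraries correlated at 0.03, -0.02 and -0.02. With the replicate block 10 carriers were higher in parental cells with the drug, 1 was higher and 8 lower in resistant than in parental cells under it, and 7 were higher and 2 lower in resistant cells than with DMSO, as without it. Upper-quartile scaling moved the median of all genes between resistant and parental cells under the drug from -0.10 to 0.01. All-gene calls there were 3228 higher and 5267 lower, against 4220 and 4363 with median-ratio and 4333 and 4237 with upper-quartile scaling. Parental cells gave 3429 and 2752, against 3199 and 3133 with median-ratio scaling. Against DMSO resistant cells gave 3160 higher and 4502 lower, against 3972 and 3846 and 3867 and 3926. Of 480 counts of the other lists, 88 moved by over 1.5 times. TPM keeps no depth, so the precision of the low DMSO values of SLC6A9, SLC7A11 and SLC1A4 is unknown.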

Other observations

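The 2 protein-coding genes on either side of each carrier in RefSeq order gave 36 distinct neighbours outside the group, of which 25 were tested. In parental cells with MAL3-101, 8 were called higher, 5 lower and 12 did not pass, by limma with Benjamini-Hochberg adjustment. Over all tested genes 22.6% were higher and 18.2% lower there. Between resistant and parental cells under the drug 6 were higher and 11 lower, beside 21.3% and 34.8% of all tested genes. Against DMSO resistant cells had 7 higher and 8 lower, beside 20.9% and 29.7%. Some neighbours were called in the same direction as their carrier. Beside SLC1A4, SERTAD2 was 0.53 higher in parental cells with the drug (adjusted p = 9.1e-04) and at -0.45 in resistant against parental cells under it (adjusted p = 8.7e-04), and RAB1A stood at 0.41 and -0.17 (adjusted p = 6.5e-04 and 0.014). STRN4 near SLC1A5 (0.28 and -0.48) and ELF2 near SLC7A11 (0.28 and -0.41) were called likewise. Others differed from theirs. MTUS2, beside SLC7A1, was called lower in parental cells (-0.96, adjusted p = 0.015) and 2.38 higher in resistant than in parental cells under the drug (adjusted p = 1.6e-04), and WDR74, beside SLC3A2, passed in none of the 3 comparisons (adjusted p = 0.523, 0.682 and 0.283). The neighbours named were chosen after their values were seen.

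The enzyme GGT1, which breaks down glutathione outside the cell, and the peroxidase GPX1 were lower in resistant cells than with DMSO. GGT1 was at 4.82 and 6.68 TPM with DMSO, 8.82 and 6.70 in parental cells with MAL3-101 and 1.02 and 0.89 in resistant cells, a log2 fold change of -1.77 against DMSO (SE 0.18, adjusted p = 2.6e-04). GPX1 was at 109.6 and 100.4, 88.7 and 92.0, and 43.0 and 45.1 TPM, at -1.23 against DMSO (SE 0.06, adjusted p = 1.4e-05). TSC1, a brake on mTORC1, was higher in resistant cells, with means of 23.4 TPM with DMSO, 25.4 in parental cells with the drug and 44.4 in resistant cells (0.78 against parental cells under the drug, SE 0.07, adjusted p = 1.4e-04). TSC2, of the same list, did not pass in that comparison (log2 fold change -0.05, adjusted p = 0.650). Against DMSO it was lower in resistant cells (log2 fold change -0.34, SE 0.08, adjusted p = 0.011), a call lost without resistant library A.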
